A study of Mus musculus with 6 samples.

Results

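Naive pluripotency transcription factors were examined in mouse embryonic stem cells with Rybp depleted, Yaf2 knocked down or both, and in their controls. Rybp and its homologue Yaf2 are alternative subunits of variant Polycomb repressive complex 1, which modifies histone H2A at its target genes. The set holds the 10 genes Klf2, Klf4, Klf5, Tfcp2l1, Esrrb, Tbx3, Nr0b1, Zfp42, Nanog and Tcl1. It was taken as every probe set annotated to 1 of these genes, which gave 21 probe sets of the 45101 on the array. Of the 21, 15 were above the dim limit on all 6 arrays and cover all 10 genes. A probe set is called dim here where its mean log2 intensity over the 6 arrays was under the log2 of the table's median intensity of 102. The other 6 probe sets were dim: 3 of Tbx3, 2 of Tfcp2l1 and 1 of Klf5.

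The cells were of a 129/B6 hybrid background and came from 3 clones, each giving 1 array with 4-hydroxytamoxifen (OHT+) and 1 without (OHT-). The Yaf2kd OHT+ group is clones 3086 and 3087, labelled as Yaf2 knockdown and also as Yaf2 mutant, with Rybp depleted by 0.8 µM 4-hydroxytamoxifen over 24 hours. The Yaf2kd OHT- group is the same 2 clones untreated, with wild-type Rybp. The Yaf2wt OHT+ group is clone 3031 with wild-type Yaf2 and the same treatment. The Yaf2wt OHT- group is clone 3031 untreated, with wild-type Rybp and Yaf2. The labels call the Yaf2kd arrays biological duplicates, while each Yaf2wt group is 1 array of 1 clone, so Yaf2 status and clone cannot be told apart. No array combines the drug with retained Rybp, so the drug and the loss of Rybp cannot be told apart either. All clones grew in serum with leukaemia inhibitory factor (LIF), on irradiated fibroblast feeders or on gelatin; the labels do not say which of these each clone had.

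Mouse embryonic stem cells are held in the naive state by a network of transcription factors that act on each other's genes. LIF acts through Stat3 on Klf4 and Tfcp2l1 and through PI3K signalling on Tbx3, and relief of Tcf7l1 repression by Wnt signalling raises Esrrb and Tfcp2l1. Klf2, Klf4 and Klf5 are zinc-finger factors with overlapping roles. Nanog is a homeobox factor that stabilises self-renewal, and Esrrb, an orphan nuclear receptor, is among its targets. Nr0b1 (Dax1) is a nuclear receptor that lacks a DNA-binding domain, and Zfp42 (Rex1) is a zinc-finger protein used as a marker of the naive state. Tcl1 is a coactivator of the kinase Akt and not itself a DNA-binding factor. It is known as a target of Pou5f1.

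The intensity values are the authors' deposited, normalised probe-set intensities on a linear scale. Tests were made on their log2 with limma over all 45037 probe sets that are not array controls, with Benjamini-Hochberg adjustment and a threshold of 0.05. Rybp and Yaf2 were read first, as a check of the labels. The files annotate 2 probe sets to Rybp, both of them also to its pseudogene Rybp-ps, and do not say which part of the gene each matches. Probe set 1421111_at had 101, 53.9 and 102 in OHT+ cells (clones 3086, 3087 and 3031), against 1785, 2262 and 1997 in OHT- cells. It fell by 4.61 on the log2 scale (adjusted p = 1.1e-04). Probe set 1428219_at rose by 3.75 on the log2 scale (adjusted p = 1.1e-04), with 3443, 2796 and 3247 in OHT+ cells against 211, 336 and 180 in OHT- cells, so the pair go opposite ways, and the rise cannot be assigned to Rybp or to the pseudogene. Yaf2 (1429839_a_at) had 297, 293, 278 and 238 on the Yaf2kd arrays, against 769 and 816 on the Yaf2wt arrays. Its other probe set, 1423399_a_at, had 223, 221, 254 and 252 against 601 and 658, so Yaf2 was lowered but still above the dim limit. All 7 embryonic stem cell markers, Nanog and Zfp42 among them, were above the dim limit. Their summed intensity lay between 77887 and 85020 on the 6 arrays. Dppa5a alone gave 35388 to 39833 of it, while a dimmer marker, Pou5f1, ran from 6528 to 9629. Among the 16 feeder fibroblast markers 9 were above the dim limit and 7 dim. The dim ones were Col3a1, Col6a1, Dcn, Lum, Fap, Prrx1 and Twist2. The 2 brightest were Acta2, at 2709 to 5468 over the 6 arrays, and Ccn2, at 3135 to 3894.

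With OHT, most naive factors had higher intensities, but none of their probe sets passed the adjusted threshold. Of the 15 probe sets above the dim limit, 14 had a positive difference (OHT+ minus OHT-, over the 3 clones) and 1 a negative one. These 15 come from 10 genes, so they are not all independent. Their median was 0.42 on the log2 scale, against -0.0070 over all 22060 probe sets above the dim limit. The genes were chosen with earlier results of these data known, so this contrast is not an independent test. The differences of Klf4, Tfcp2l1 and Tcl1 lay between 0.81 and 0.90, or 1.75-fold to 1.86-fold, whereas those of Klf5 and Nr0b1 were 0.10 or less. None of the 21 passed limma's adjusted threshold. Over the whole array 63 probe sets did, 0.140% of those tested, 52 higher and 11 lower. The lowest adjusted p was that of Tcl1, at 0.0715. At an unadjusted p under 0.05 were 11 of the 15, from 8 genes, against 7.99% of all probe sets. That share includes dim probe sets, which vary more between replicates, so it is not a like-for-like comparison. The summed intensity of 16 feeder fibroblast markers lay on the same side. It was 11779, 12447 and 8901 in OHT+ cells (clones 3086, 3087 and 3031) against 10479, 9819 and 7916 in OHT- cells. Most of this sum was Acta2 and Ccn2, with OHT differences of 0.31 and 0.011, and 7 of the 16 markers were dim. The part of feeder cells in the differences of the naive factors was not tested. In bulk RNA, fewer cells of a type and less RNA per cell cannot be told apart.

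**Figure D1:**
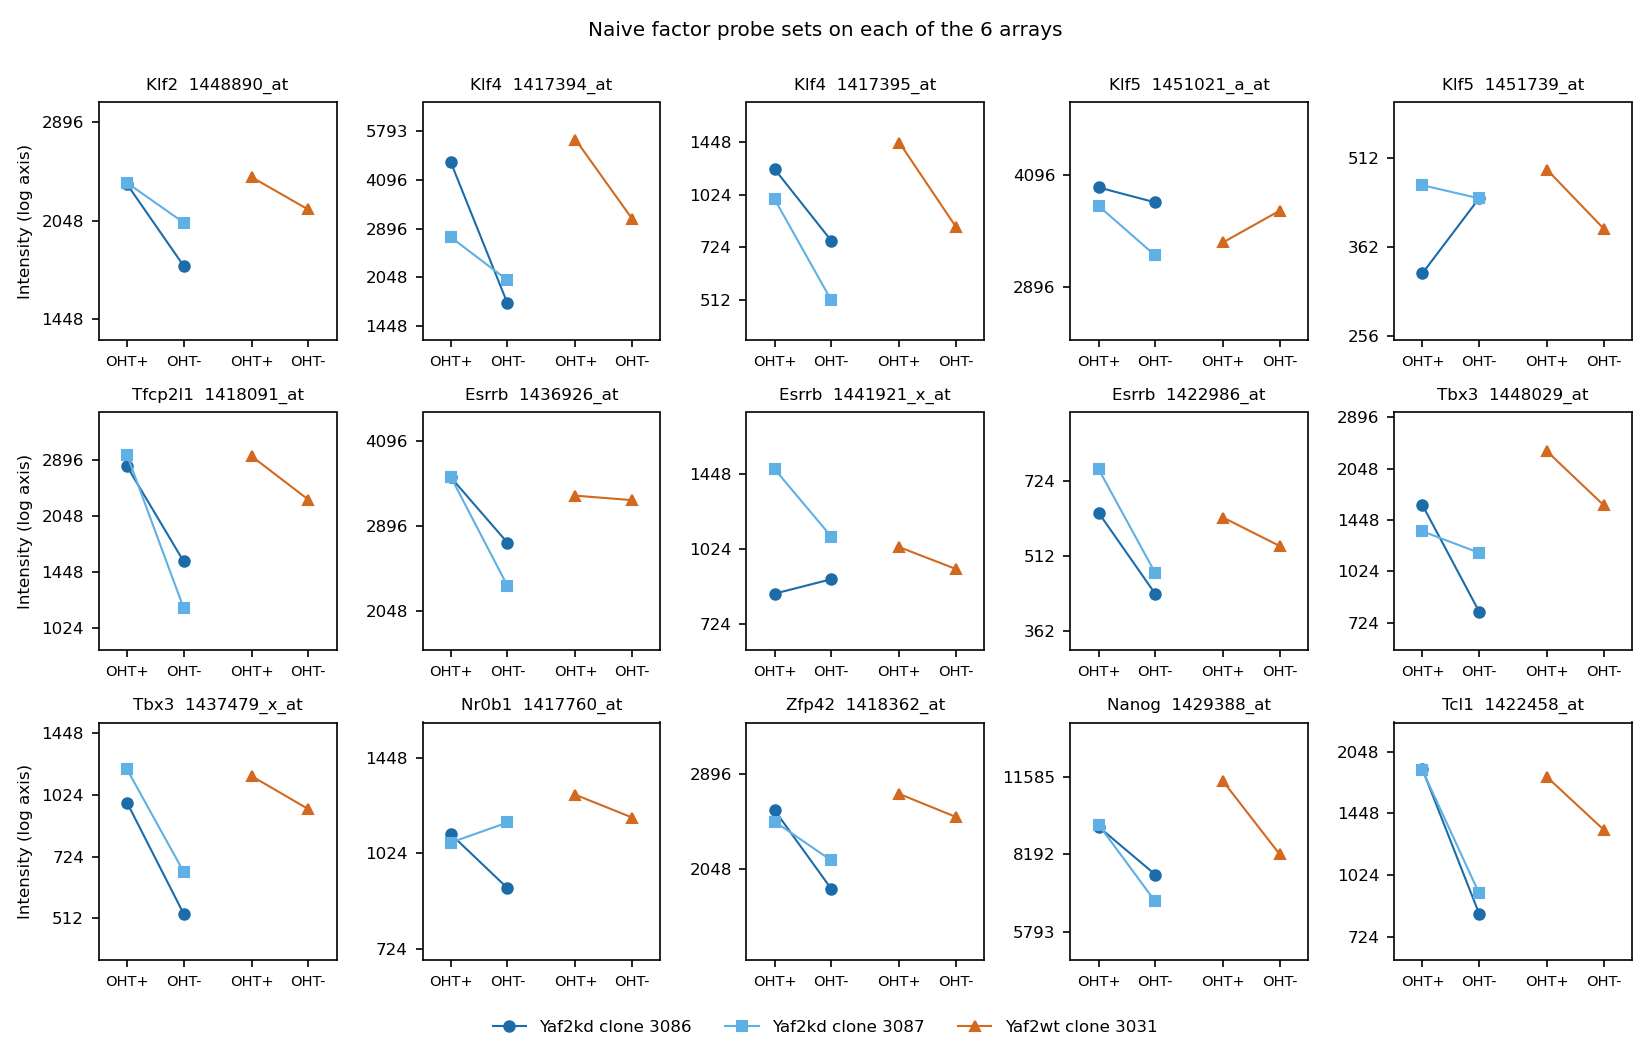
Intensity (log axis) of the 15 probe sets above the dim limit on each array; lines join the OHT+ and OHT- arrays of a clone, with Yaf2kd clones 3086 and 3087 as circles and squares and Yaf2wt clone 3031 as triangles. In 11 of the 15 panels all 3 lines run downward to the OHT- array, and in 11 the 2 Yaf2kd OHT- points are the lowest of the 6.

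Among probe sets above the dim limit, Klf4 had the largest difference. Its probe set 1417394_at had 4628 and 2723 in Yaf2kd OHT+ cells (clones 3086 and 3087) and 5442 in Yaf2wt OHT+ cells, against 1704, 2008 and 3104 in the same clones without OHT. The OHT+ array was the higher in each clone, by 2.72-fold, 1.36-fold and 1.75-fold, but the groups overlapped, since the Yaf2wt OHT- array was above the OHT+ array of clone 3087. The second Klf4 probe set, 1417395_at, had 1208, 992 and 1440 in OHT+ cells against 756, 512 and 828 in OHT- cells. Here all OHT+ arrays were above all OHT- arrays. The log2 differences were 0.90 ± 0.17 (SE, adjusted p = 0.133) and 0.81 ± 0.16 (SE, adjusted p = 0.139; limma). With the clone as a block, which calls 101 probe sets in all, 1417395_at passed with an adjusted p of 0.0191. It passed under no other alternative. The 2 probe sets thus had the same sign and nearly the same size.

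Tfcp2l1, a CP2-family factor downstream of LIF and Wnt signals, was higher with OHT in each clone on its bright probe set only. Probe set 1418091_at had 2789, 2991 and 2968 in OHT+ cells, against 1549, 1161 and 2270 in OHT- cells. The 3 OHT+ arrays lay within 1.07-fold of each other and the OHT- arrays within 1.96-fold, with clone 3031 the highest of the OHT- arrays, so the groups did not overlap. The log2 difference was 0.87 ± 0.16 (SE, adjusted p = 0.119, limma). The other 2 probe sets had negative differences, -1.31 for 1460715_x_at and -1.18 for 1460714_at. Their values were near the bottom of the table. Probe set 1460715_x_at had 4.68, 4.32 and 7.53 in OHT+ cells against 14.8, 34.8 and 4.49 in OHT- cells. Probe set 1460714_at had 7.02, 0.660 and 1.25 in OHT+ cells against 19.2, 1.70 and 2.07 in OHT- cells. Their 95% intervals ran from -3.46 to 0.84 and from -4.11 to 1.74, and both span 0. Both of these dim probe sets were designed on 1 and the same accession in the platform annotation, which differs from that of the bright one.

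Tcl1 and Nanog, each read by 1 probe set, had no overlap between OHT+ and OHT- arrays. Tcl1 (1422458_at) had 1856, 1845 and 1776 in OHT+ cells, against 826, 926 and 1322 in OHT- cells, and was thus 2.25-fold, 1.99-fold and 1.34-fold higher with OHT in clones 3086, 3087 and 3031. Its log2 difference was 0.86 ± 0.14 (SE, adjusted p = 0.0715). Nanog (1429388_at) had 9262, 9351 and 11333 in OHT+ cells, against 7488, 6642 and 8189 in OHT- cells. Its log2 difference was 0.42 ± 0.080 (SE, adjusted p = 0.129), with 1.24-fold, 1.41-fold and 1.38-fold in clones 3086, 3087 and 3031. Both crossed the threshold when dim probe sets were left out before the fit, with adjusted p of 0.0365 for Tcl1 and 0.0420 for Nanog in limma. Tcl1 also passed with 1 row per gene (adjusted p = 0.0350, limma), and Nanog under no other alternative. Neither passed with no intensity trend or with any 1 array left out.

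Tbx3, a T-box factor that acts beside Klf4 and Nanog, had 2 bright probe sets of the same sign. Probe set 1448029_at had 1600, 1340 and 2299 in OHT+ cells, against 780, 1160 and 1599 in OHT- cells, which overlap because the Yaf2wt clone was higher in both conditions. Probe set 1437479_x_at had 981, 1183 and 1138 in OHT+ cells, against 525, 665 and 946 in OHT- cells, with no overlap. Their log2 differences were 0.59 ± 0.15 and 0.67 ± 0.16 (SE, adjusted p = 0.297 and 0.264). The 3 dim Tbx3 probe sets had differences of 0.66, 0.62 and 0.43, each with an interval that spans 0. Of these, 1445757_at had 107, 111 and 155 in OHT+ cells against 37.0, 140.3 and 90.2 in OHT- cells, and 1439567_at had 79.7, 155 and 106 in OHT+ cells against 42.4, 135 and 63.3 in OHT- cells. The third, 1444594_at, had 39.8, 8.40 and 17.1 in OHT+ cells against 18.8, 6.22 and 19.9 in OHT- cells.

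Esrrb had 2 probe sets with small positive differences and another with overlapping groups. Probe set 1436926_at had 3528, 3534 and 3276 in OHT+ cells, against 2705, 2270 and 3217 in OHT- cells, so that clone 3031 differed by 1.02-fold. Probe set 1422986_at had 626, 767 and 612 in OHT+ cells, against 430, 474 and 537 in OHT- cells. On these 2 probe sets all OHT+ arrays were above all OHT- arrays, with log2 differences of 0.35 ± 0.12 and 0.48 ± 0.15 (SE, adjusted p = 0.488 and 0.434). The third, 1441921_x_at, had 833, 1479 and 1032 in OHT+ cells against 890, 1083 and 933 in OHT- cells. It was lower with OHT in clone 3086 and its groups overlapped (log2 difference 0.17 ± 0.19, SE).

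Klf2 and Zfp42 had small differences in every clone. Klf2 (1448890_at) had 2330, 2342 and 2389 in OHT+ cells, against 1749, 2036 and 2132 in OHT- cells, with no overlap. Its log2 difference was 0.26 ± 0.095 (SE, adjusted p = 0.534). Zfp42 (1418362_at) had 2536, 2434 and 2694 in OHT+ cells, against 1901, 2111 and 2476 in OHT- cells. The Yaf2wt OHT- array was above the OHT+ array of clone 3087, and the difference was 0.25 ± 0.092 (SE, adjusted p = 0.538).

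Klf5 and Nr0b1 differed by no more than the spread between arrays. Klf5 1451021_a_at had 3937, 3718 and 3323 in OHT+ cells, against 3759, 3191 and 3665 in OHT- cells. Klf5 1451739_at had 327, 461 and 490 in OHT+ cells, against 438, 438 and 389 in OHT- cells. Their intervals of the log2 difference ran from -0.18 to 0.27 and from -0.41 to 0.40. The dim Klf5 probe set 1430255_at had 41.4, 51.3 and 56.5 in OHT+ cells against 29.4, 65.5 and 39.0 in OHT- cells. Nr0b1 (1417760_at) had 1097, 1064 and 1266 in OHT+ cells, against 902, 1145 and 1165 in OHT- cells, with an interval from -0.16 to 0.36.

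Across the 15 probe sets above the dim limit, 11 were higher with OHT in all 3 clones, where 16.9% of all such probe sets on the array were. In 8 of the 15, from 7 genes, every OHT+ array was above every OHT- array, against 6.98% of all probe sets above the dim limit. The 7 genes were Klf2, Klf4, Tfcp2l1, Esrrb, Tbx3, Nanog and Tcl1. The opposite arrangement, every OHT+ array below every OHT- array, occurred in 0 of the 15, against 7.36%. As the genes were chosen with earlier results of these data known, these shares are not an independent yardstick.

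**Figure D2:**
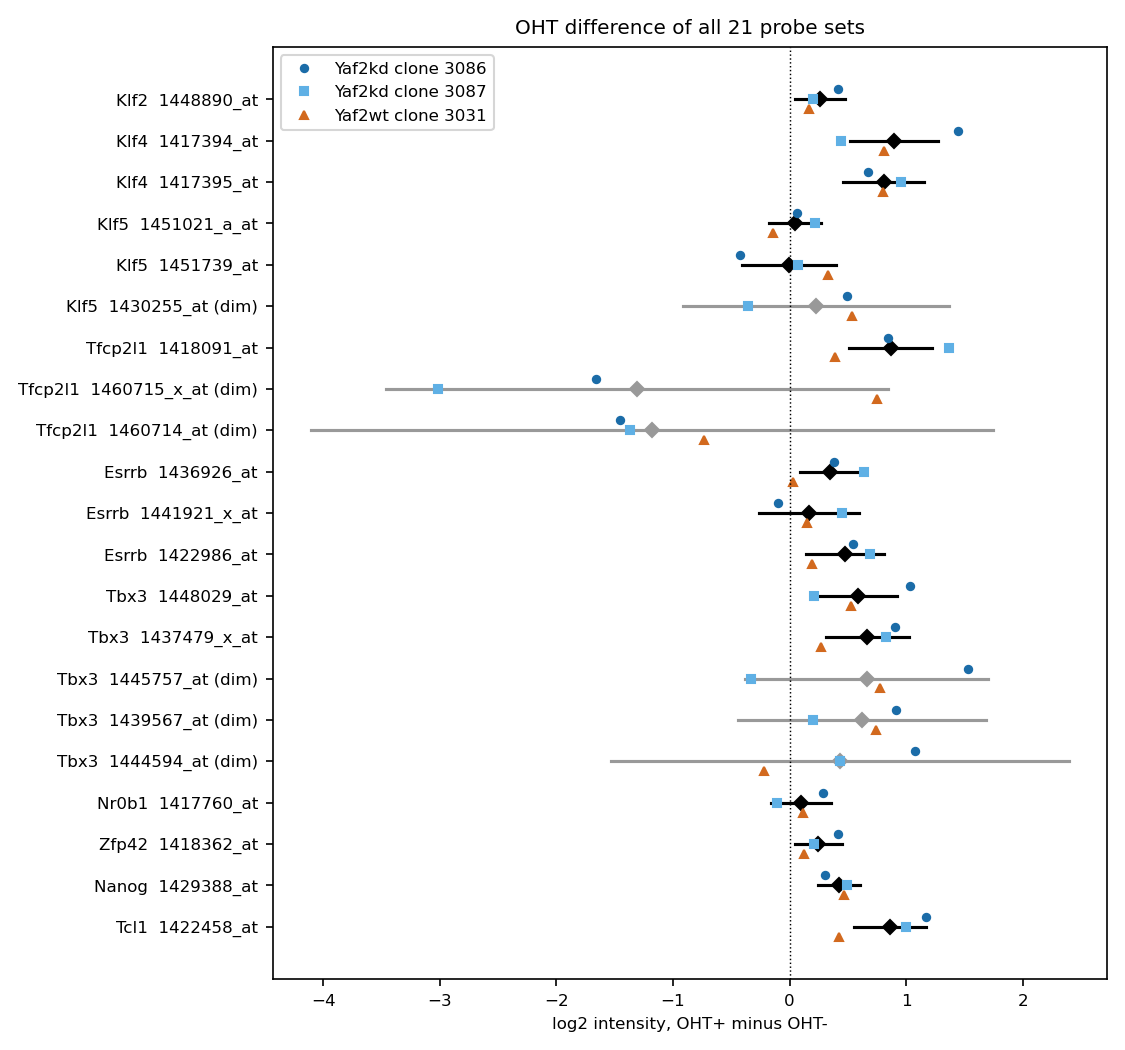
Difference in log2 intensity (OHT+ minus OHT-) of all 21 probe sets: diamonds are limma estimates over the 3 clones with 95% intervals (grey for dim probe sets), and small markers are the single clones. The 15 probe sets above the dim limit lie between -0.0053 and 0.90, and the 2 estimates far to the left are the dim Tfcp2l1 probe sets, with intervals that span 0.

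The sequence before the start of a gene can be read beside these values. The 250 bases before the RefSeq transcript start (build GRCm38.p6) are given for the 3 genes with the largest differences above the dim limit and for Zfp42, the other gene in which a searched motif was found. Capitals mark the E-box CACGTG in Klf4 and the reverse complement of GGGTGTGG, a form of the site bound by KLF factors, in Zfp42. Klf4 is at chr4:55532476-55532725 on the minus strand, Tfcp2l1 at chr1:118627695-118627944 on the plus strand, Tcl1 at chr12:105222738-105222987 on the minus strand and Zfp42 at chr8:43307010-43307259 on the minus strand.
Klf4: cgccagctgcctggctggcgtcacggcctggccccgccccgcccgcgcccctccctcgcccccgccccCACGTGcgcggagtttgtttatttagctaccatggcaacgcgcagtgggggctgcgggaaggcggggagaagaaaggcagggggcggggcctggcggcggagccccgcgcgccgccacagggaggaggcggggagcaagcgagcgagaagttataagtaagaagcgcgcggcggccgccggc
Tfcp2l1: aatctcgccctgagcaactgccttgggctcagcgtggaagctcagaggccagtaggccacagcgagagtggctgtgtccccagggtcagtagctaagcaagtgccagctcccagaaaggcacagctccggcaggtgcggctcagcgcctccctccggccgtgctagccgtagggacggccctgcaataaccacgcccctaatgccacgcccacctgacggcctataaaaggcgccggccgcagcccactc
Tcl1: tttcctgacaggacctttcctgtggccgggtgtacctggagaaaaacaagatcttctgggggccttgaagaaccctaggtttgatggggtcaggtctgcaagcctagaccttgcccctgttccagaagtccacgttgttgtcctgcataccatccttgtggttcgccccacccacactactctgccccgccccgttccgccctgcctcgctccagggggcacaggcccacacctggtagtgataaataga
Zfp42: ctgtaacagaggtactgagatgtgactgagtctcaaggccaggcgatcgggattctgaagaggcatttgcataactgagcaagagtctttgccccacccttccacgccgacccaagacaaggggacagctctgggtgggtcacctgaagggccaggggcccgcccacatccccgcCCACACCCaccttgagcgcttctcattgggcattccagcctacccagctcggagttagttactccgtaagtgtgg

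RefSeq windows of 250 bases before to 50 after a start were at hand for 8 of the 10 genes, 10 windows in all, with none for Klf5 and Tbx3. Max with Mga binds the E-box, and E2f6 the E2F site, in 1 variant of the complex that holds Rybp or Yaf2. On both strands, CACGTG was found in 1 of the 10 windows, that of Klf4, and in 7.15% of all 32851 windows. GGGTGTGG was found in 1, that of Zfp42, and in 3.56% of all windows. TCCCGCC, a form of the E2F site, was in 0 of the 10 and in 11.3% of all. TCAAGGTCA, the extended half-site of Esrrb, was in 0 of the 10 and in 0.423% of all. The Klf4 window was 74.3% GC with 40 CpG dinucleotides, that of Tfcp2l1 65.3% with 21 and that of Tcl1 56.7% with 11, against a median of 52.7% and 7 over all windows. These 3 genes thus span a wide range of CpG content.

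The OHT comparison was next made within each Yaf2 status. In the Yaf2kd clones the differences of Tfcp2l1 (1418091_at) and Tcl1 were the largest of the 15 probe sets above the dim limit, at 1.11 ± 0.16 and 1.08 ± 0.14 on the log2 scale (SE, 2 arrays a group), or 2.15-fold and 2.12-fold. Their adjusted p-values in limma were 0.182 and 0.100. None of the member probe sets passed, and over the array 17 did, 0.0377% of those tested. At an unadjusted p under 0.05 were 11 of the 15 above the dim limit, against 2702 of all 45037 probe sets. With the clone as a block, which calls 51 probe sets in all, both genes passed, with adjusted p of 0.0192 for Tfcp2l1 and 0.0175 for Tcl1. They also passed with dim probe sets left out, at 0.0460 and 0.0388, and under no other alternative. Above the dim limit, the other Yaf2kd differences were 0.94 and 0.82 for Klf4, 0.62 and 0.87 for Tbx3, 0.51, 0.62 and 0.18 for Esrrb, and 0.40 for Nanog. Klf2 and Zfp42 each differed by 0.31, Nr0b1 by 0.089 and Klf5 by 0.14 (1451021_a_at) and -0.17 (1451739_at). The dim Tfcp2l1 probe sets differed by -2.34 (1460715_x_at) and -1.41 (1460714_at), with intervals that span 0. Leaving out 1 array moved Klf4 and Tbx3. Klf4 1417394_at was 0.56 without the OHT+ array of clone 3086, Klf4 1417395_at to 0.53 without the OHT- array of clone 3087 and Tbx3 1448029_at to 0.34 without the OHT- array of clone 3086.

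In the Yaf2wt clone there was 1 array for each condition, so its values have no replicate check. Tested in limma against the variation within the Yaf2kd groups, 4 probe sets on the array passed (0.00888%) and 0 of the 21 members, each of which had an adjusted p of 1.0. At an unadjusted p under 0.05 were 3 of the 21, both Klf4 probe sets and Nanog, against 3.26% of all probe sets. Both Klf4 probe sets were at least 1.5-fold higher in the OHT+ array, at 1.75-fold and 1.74-fold. No other member above the dim limit reached that size, where 3.80% of all probe sets above the dim limit did. Tbx3 1448029_at came next, at 1.44-fold, then Nanog at 1.38-fold, Tcl1 at 1.34-fold and Tfcp2l1 at 1.31-fold. In the Yaf2kd clones, 6 of the 15 were at least 1.5-fold higher in each clone, where 5.08% (clone 3086) and 6.62% (clone 3087) of all probe sets above the dim limit were. The 15 log2 differences had medians of 0.42 (clone 3086), 0.45 (clone 3087) and 0.27 (clone 3031).

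The difference between those effects was tested as an interaction, Yaf2kd minus Yaf2wt. It was 0.72 for Tfcp2l1 1418091_at (95% interval 0.084 to 1.36) and 0.66 for Tcl1 (0.11 to 1.20), with unadjusted p of 0.0310 and 0.0235 in limma. The adjusted p was 1.0 for every member, and 0 of 45037 probe sets passed, while 1077 (2.39%) had an unadjusted p under 0.05. Of the 15 probe sets, 12 were positive and 3 negative, with a median of 0.14 against 0.0099 over all above the dim limit. For Klf4 the interaction was 0.13 and 0.018, with intervals from -0.79 to 1.05 and from -0.83 to 0.87, which are wide. For Nanog it was -0.069 (-0.51 to 0.37). These values rest on a single Yaf2wt pair.

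Yaf2 status was compared over both OHT conditions, with 4 Yaf2kd arrays against 2 Yaf2wt arrays. Naive factors had mostly lower values in Yaf2kd cells. Of the 15 probe sets above the dim limit, 13 had a negative difference and 2 a positive one, with a median of -0.21 on the log2 scale against 0.012 over all above the dim limit. This contrast too is not independent of the choice of genes, made with earlier results of these data known. None passed limma's threshold, and none did on the whole array (0 of 45037, 0%), where 4032 probe sets (8.95%) had an unadjusted p under 0.05. Of the 15 member probe sets above the dim limit, 6 from 4 genes did, while the share of 8.95% includes dim probe sets. The knocked-down gene itself had a difference of -1.52 (1429839_a_at) without passing (adjusted p = 0.163).

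Among probe sets above the dim limit, Tbx3 and Klf4 had the largest Yaf2 differences. Tbx3 1448029_at differed by -0.70 ± 0.16 (SE, adjusted p = 0.295) and 1437479_x_at by -0.38 ± 0.17 (SE, adjusted p = 0.558). Klf4 differed by -0.68 ± 0.18 on 1417394_at and by -0.40 ± 0.16 on 1417395_at (SE, adjusted p = 0.353 and 0.530). Tfcp2l1 differed by -0.40 ± 0.17, Tcl1 by -0.27 ± 0.15, Nanog by -0.25 ± 0.084 and Nr0b1 by -0.21 ± 0.12 (SE). Several of these values turned on 1 Yaf2wt array. Without the Yaf2wt OHT- array the difference was -0.039 for Tfcp2l1, -0.079 for Tbx3 1437479_x_at and 0.059 for Tcl1, which changed sign. Without the Yaf2wt OHT+ array it was -0.76 for Tfcp2l1, -0.68 for Tbx3 1437479_x_at and -0.60 for Tcl1. Tfcp2l1 was also at -0.26 without the OHT- array of clone 3087, and Nr0b1 at -0.14 without that of clone 3086. The dim Tfcp2l1 probe sets had positive Yaf2 differences, 1.12 for 1460714_at and 0.80 for 1460715_x_at. Nr0b1 was the only member above the dim limit with all 4 Yaf2kd arrays below both Yaf2wt arrays, an arrangement held by 11.1% of all such probe sets. Its intensities were 1097, 1064, 902 and 1145 in Yaf2kd cells, against 1266 and 1165 in Yaf2wt cells.

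The lowest intensities of most members were on the Yaf2kd OHT- arrays. In 11 of the 15 probe sets, from 8 genes, both Yaf2kd OHT- arrays were below the 4 other arrays, an arrangement found in 6.72% of all probe sets above the dim limit and singled out here after the values were seen. The 8 genes were all but Klf5 and Nr0b1. In OHT+ cells the Yaf2kd mean of Tcl1 was 1.04 times the Yaf2wt value, and in OHT- cells 0.661 times. For Tfcp2l1 these ratios, taken from means of log2 intensity, were 0.973 in OHT+ cells and 0.591 in OHT- cells. For Esrrb 1436926_at they were 1.08 in OHT+ and 0.770 in OHT- cells, and for Tbx3 1437479_x_at 0.946 in OHT+ and 0.625 in OHT- cells. The ratios of Klf4 were close to each other, at 0.652 in OHT+ and 0.596 in OHT- cells on 1417394_at and at 0.760 in OHT+ and 0.751 in OHT- cells on 1417395_at. So were those of Tbx3 1448029_at, at 0.637 in OHT+ and 0.595 in OHT- cells, so the 2 bright Tbx3 probe sets gave different ratios. The interaction given above is the test of this change, and it did not pass for any member. On simulated data this test recovered 21 of 95 changes of log2 size 1 and 72 of 105 of log2 size 2. Its failure to pass therefore does not show that the change is absent.

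**Figure D3:**
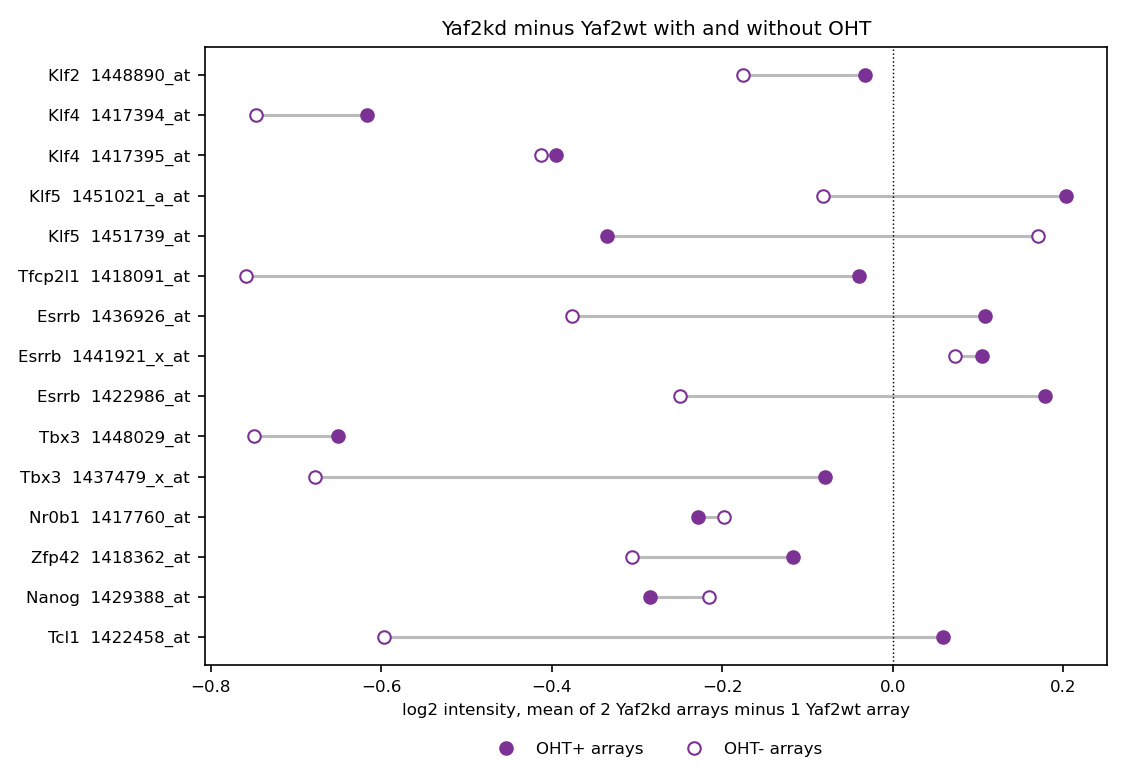
Yaf2kd mean (2 arrays) minus the Yaf2wt array in log2 intensity, for the 15 probe sets above the dim limit, with filled points for OHT+ arrays and open points for OHT- arrays. For Tfcp2l1 the filled point is at -0.039 and the open one at -0.76, and for Klf4 1417394_at both are far left, the filled one at -0.62 and the open one at -0.75.

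The OHT+ arrays of some members were closer to each other across clones than the OHT- arrays, and those of others were further apart. Highest over lowest intensity was 1.05 on the OHT+ arrays of Tcl1, against 1.60 on its OHT- arrays. For Klf2 it was 1.03 on the OHT+ arrays, against 1.22 on the OHT- arrays. The OHT+ arrays had the smaller ratio in 10 of the 15 probe sets, where 46.8% of all probe sets above the dim limit had it.

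The probe sets nearest in pattern to Klf4 1417394_at were sought among 19370 above the dim limit with 1 gene symbol. Likeness was the root mean square difference of log2 values centred over the 6 arrays. The nearest were Laptm5 at 0.115, Scara5 at 0.148, Tbx4 at 0.220, Firre at 0.230 and Gfod1 at 0.238. None of them passed with OHT (adjusted p 0.108 to 0.542, limma). Scara5 and Tbx4 were near the dim limit of 102, at 60.7 to 98.6 and 57.0 to 129 on the OHT- arrays. Laptm5 (1436905_x_at) had 1447, 1011 and 1619 in OHT+ cells (clones 3086, 3087 and 3031), against 569, 612 and 1095 in OHT- cells. Among the members, Tbx3 1448029_at was nearest to Klf4 1417394_at at 0.234, then Klf4 1417395_at at 0.304 and Tcl1 at 0.319.

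Of the genes around the network, 1 passed. The gene lists read here were also chosen with earlier results of these data known. Of 15 other naive-state genes 13 were measured by a probe set with 1 symbol. Fbxo15, an F-box protein gene active in embryonic stem cells, rose with OHT. It had 4668, 5299 and 6393 in OHT+ cells, against 1904, 2241 and 2173 in OHT- cells (log2 difference 1.36 ± 0.10, SE; limma adjusted p = 8.2e-04). It passed with each array left out in turn (adjusted p 0.0010 to 0.041) and was the only gene of the list to pass in this fit. With no intensity trend Fbxo15 did not pass (adjusted p = 0.397, limma). In Yaf2kd cells alone its call was less stable, and was lost also with log2(intensity + 50) and with centring (limma adjusted p = 0.106 and 0.0524). The median of the list was 0.20, with 11 above 0, and 0.22 with the dim Mras left out. Prdm14, a repressor of DNA methylation genes, differed by 0.81 (adjusted p = 0.234) and Dppa3 (Stella) by 0.61 (adjusted p = 0.120).

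The signals that feed the network had smaller differences. Of 12 measured LIF, Stat3 and Wnt genes, 0 passed with OHT in either direction and the median was 0.043. That median was 0.075 with the dim Lif left out. Socs3, a Stat3 target and feedback inhibitor, differed by 0.43 (adjusted p = 0.465), and Axin2, a Wnt target, by 0.27 (adjusted p = 0.781). Of the core factors, Sox2 differed by 0.24 (adjusted p = 0.418) and Pou5f1 by -0.18 (adjusted p = 0.773). All 9 primed epiblast genes were measured, and 8 had a negative difference, with a median of -0.33 and 0 passing in either direction. Fgf5 and Zic2 were dim. Of the 7 not dim, 6 were negative, with a median of -0.46. Otx2, a homeobox factor of the primed epiblast, had 518, 470 and 514 in OHT+ cells against 750, 1039 and 807 in OHT- cells (log2 difference -0.78, adjusted p = 0.134). Sox3 differed by -1.14 (adjusted p = 0.294).

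Markers of other cells were followed beside these values. Of the 16 feeder fibroblast markers 13 had a positive OHT difference, with a median of 0.38 and 0 passing. Of the 9 not dim, 8 were positive, with a median of 0.34. The summed intensity of all 16, given above, was higher in OHT+ cells in every clone. Pdgfrb differed by 1.34 (adjusted p = 0.246) and Col1a1 by 0.67 (adjusted p = 0.499). Fibroblasts also express Klf4, and their share in its values was not tested. Of the 6 primitive endoderm markers 4 were dim and of the 8 trophectoderm markers 3, Cdx2 and Elf5 among them, and 0 of either list passed with OHT.

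The same lists were read in the Yaf2 comparison. The median Yaf2 difference, dim probe sets included, was -0.0028 for the other naive-state genes and 0.15 for the primed epiblast genes (8 of 9 above 0). It was 0.24 for the fibroblast markers (11 of 16 above 0) and 0.58 for the trophectoderm markers (7 of 8 above 0). With dim probe sets left out, as for the member medians, these medians were -0.075, 0.15, 0.34 and 0.45. In the trophectoderm list 4 of 5 were then above 0. The summed intensity of the fibroblast markers was 9819 to 12447 in Yaf2kd cells, against 7916 and 8901 in Yaf2wt cells. Most of it was Acta2 and Ccn2, which differed by 0.62 and 0.21. No gene of these lists passed. Krt8, a keratin of trophectoderm that stem cells also express, differed by 0.72 (adjusted p = 0.205).

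**Figure D4:**
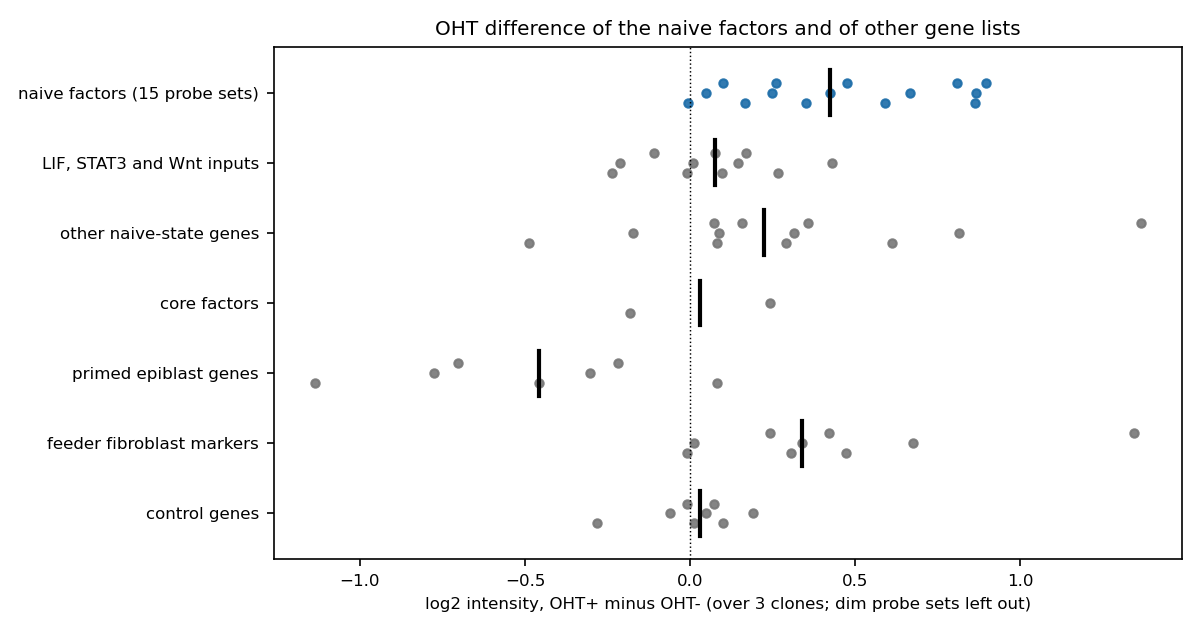
OHT+ minus OHT- log2 intensity over the 3 clones for the 15 naive factor probe sets and for the genes of 6 other lists, dim probe sets left out; each point is a probe set (the brightest of a gene for the other lists) and each bar a median. The naive factor median is at 0.42, that of the primed epiblast genes at -0.46 and that of the control genes at 0.030.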

How the data were processed

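Total RNA was labelled with biotin and hybridised to 6 arrays. The deposited values are probe-set intensities; per the submitters' processing notes the authors used Affymetrix Expression Console and RMA, with no role or version given. Every array holds the same sorted values, from 0.140 to 45795, as quantile normalisation leaves; small differences at high intensity may be flattened by it. The series text speaks of a 430A 2.0 array, but 45101 probe sets were deposited, and their platform annotation gave the genes. Precision is limited by there being only 6 arrays.

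The log2 of the intensity was taken with no pseudocount, 64 control probe sets were left out, and the other 45037 were fitted in R 4.3.3 with limma 3.58.1 (lmFit, then eBayes), with an intensity trend and Benjamini-Hochberg adjustment at 0.05. The trend was used because the median replicate SD (log2) was 0.736 for dim probe sets and 0.183 for the rest. Without the trend, 0 probe sets pass in any comparison, and Rybp itself has an adjusted p of 0.296 with OHT. The OHT and Yaf2 effects came from a model with both terms, and the OHT effects in Yaf2kd cells and in the Yaf2wt pair and the interaction from a model of the 4 groups, where the spread comes from the Yaf2kd groups and is taken to hold for the lone Yaf2wt arrays too. The scripts were tested on simulated data. Same-numbered Yaf2kd arrays are 1 clone each, so the clone pairs them; their deviations from the group means correlated at 0.155. The Yaf2kd replicates are labelled biological duplicates, and all p-values refer to the spread between these arrays only.

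Alternatives were no trend, dim probe sets left out, 1 row per gene, log2(intensity + 50), centring on control genes, the clone as a block and leaving out each array. The named genes were all members, Rybp, Yaf2, the 5 nearest in pattern to Klf4, and per list those that passed or else the 2 largest differences above the dim limit. The members and lists were chosen with earlier results of these data known. Sequences are from RefSeq, build GRCm38.p6; 8 of the 10 genes matched.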

Additional observations from a re-analysis of the deposited data

How the results depend on the processing

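Signs of the 15 member probe sets were the same under no trend, dim probe sets left out, 1 row per gene, log2(intensity + 50), centring and the clone block, with 0 of 85 values reversed in each of the 4 comparisons. Calls were less stable. The OHT effect over 3 clones called 0 probe sets with no trend, 97 without dim probe sets and 101 with the replicate block (the clone), against 63. Member probe sets called there numbered 2 without dim probe sets (Tcl1 and Nanog), 1 with 1 row per gene (Tcl1) and 1 with the block (Klf4 1417395_at). In Yaf2kd cells the count was 0 with no trend, 35 without dim probe sets, 9 with 1 row per gene, 4 with log2(intensity + 50) and 51 with the block, against 17. There 2 members passed without dim probe sets and 2 with the block, Tfcp2l1 and Tcl1 each time. The clone block changed no other member's call. The Yaf2 effect called 1 probe set without dim ones. In the Yaf2wt pair 6 of 21 member probe sets were at least 1.5-fold apart, and 2 with log2(intensity + 50). The cause was not tested.

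Leaving out 1 array gave 14 to 53 calls for the OHT effect, 14 and 17 without the Yaf2wt OHT+ and OHT- arrays and 21 and 17 without the OHT+ arrays of clones 3086 and 3087. For Yaf2kd cells it gave 0 to 12, namely 1 and 0 without the OHT+ arrays of clones 3086 and 3087 and 11 without the OHT- array of clone 3086. For the Yaf2 effect it gave 0 to 8, with 8 without the OHT- array of clone 3086. No member passed in any of these fits. Signs turned for Esrrb 1441921_x_at (OHT -0.073 to 0.40, Yaf2kd -0.24 to 0.59, Yaf2 -0.091 to 0.26, interaction -0.38 to 0.45). They turned for Klf5 1451739_at (OHT -0.17 to 0.18, Yaf2kd -0.42 to 0.074, Yaf2 -0.34 to 0.17) and Klf5 1451021_a_at (OHT -0.046 to 0.14, Yaf2 -0.082 to 0.20). Yaf2 differences turned for Esrrb 1422986_at (-0.25 to 0.18) and 1436926_at (-0.38 to 0.11) and Tcl1 (-0.60 to 0.059), and in Yaf2kd cells Nr0b1 ran from -0.083 to 0.26. The interaction turned for Klf4 1417394_at (-0.25 to 0.51) and 1417395_at (-0.26 to 0.30), Nanog (-0.16 to 0.018), Nr0b1 (-0.20 to 0.14) and Tbx3 1448029_at (-0.19 to 0.38). Without a Yaf2wt array the interaction cannot be estimated. Fbxo15 and both Rybp probe sets passed under the alternatives of the OHT effect over 3 clones run for them except no trend, at adjusted p of 0.397 and 0.296; 1 row per gene was not run for Rybp, whose probe sets carry 2 symbols. In Yaf2kd cells Fbxo15 lost its call also with log2(intensity + 50) (0.106), with centring (0.0524) and without 3 of the 4 Yaf2kd arrays (0.0968 to 1.00). Signal over background limits the 6 dim member probe sets.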
